A study of Mus musculus with 2 samples.

Results

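The cytosolic ribosomal protein genes encode the protein building blocks of the ribosomes that translate nuclear-encoded mRNA. They were taken by symbol: every gene named Rpl or Rps followed by a number, with or without a paralogue letter, together with Rpsa, Rplp0, Rplp1 and Rplp2, and without entries named as pseudogenes. The rule found 84 of the 32285 genes in the files, of which 52 belong to the large (60S) and 32 to the small (40S) subunit. All 84 were found in the GENCODE M21 annotation, and 83 had at least 1 unique molecular identifier (UMI, the tag that marks 1 captured mRNA molecule). Rpl10l was the member with none.

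The cells were adherent mouse bone marrow stromal cells (BMSCs), the marrow fraction that attaches to plastic and holds mesenchymal cells beside adherent blood cells. Marrow came from femurs and tibias of C57BL/6J mice and was cultured in alpha-MEM holding 10% fetal bovine serum, and loose cells were washed away after 48 h. The control library (WT) came from Slc31a1 flox/flox mice without Cre, and the conditional knockout library (cKO) from Prrx1-Cre+/-; Slc31a1 flox/flox littermates, so that both carry the floxed allele of this copper importer. Prrx1-Cre acts in limb mesenchyme and its descendants, neither group had any treatment, and the mice's age and the number of mice behind a library are not given in the labels. There was 1 library per group, made with a 10x Genomics Chromium 3' kit, so no test across samples exists, and every interval below is a 95% interval for counting error between these 2 libraries only.

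A ribosome carries 1 copy of nearly every ribosomal protein, and the genes are transcribed together at high levels in growing cells. Their mRNAs as a family begin with a run of pyrimidines at the 5' end, the 5' terminal oligopyrimidine (TOP) tract, through which mTOR signalling and LARP1 adjust their translation. Several members have a second, similar gene (Rpl22 and Rpl22l1, Rpl39 and Rpl39l, Rps27 and Rps27l), and the balance within such a pair differs between tissues. Mesenchymal cells of marrow secrete a collagen-rich matrix, whereas macrophages and neutrophils are blood cells that share the culture dish.

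The libraries held 152398639 (WT) and 126031142 (cKO) UMIs in 9125 and 6140 barcodes, 11 barcodes occurred in both, and 7637 WT and 5263 cKO cells were kept. The label calls the cells mesenchymal stem cells, but clusters of other classes were present: mesenchymal-like cells numbered 3762 (WT) and 1439 (cKO), macrophage-like cells 1198 and 1437, and neutrophil-like cells 313 and 334. Clusters 2 and 3, whose markers were nearest to macrophage, stayed unnamed because their 10 leading genes held more markers of another class. The summed level of the 12 mesenchymal markers was 20869 (WT) and 19225 (cKO) UMIs per 1000000 UMIs (CPM) in mesenchymal-like cells and 1768 and 1715 CPM in macrophage-like cells, with none of the 12 at 0 in either class. The targeted gene, Slc31a1, was at 42.4 CPM in WT and 14.4 CPM in cKO mesenchymal-like cells, and at 61.6 and 63.6 CPM in macrophage-like cells. Which exons are floxed is not given in the labels, and a 3' tag outside the deleted part would not report the deletion. None of the ribosomal protein genes except Rpl39l was among the 2000 variable genes that defined the clusters.

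To show what the promoters of the members look like at a listed start, 30 bases around it were read from RefSeq (GRCm38.p6). This was done for the 3 paralogue pairs above and for Rpl7l1 and Rpl35, which recur in the results. Each window holds 15 bases before the start and 15 from the start on, and capitals mark a run of at least 8 C or T with a base within 10 bases of the start.
Rpl22: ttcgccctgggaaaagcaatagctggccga
Rpl22l1: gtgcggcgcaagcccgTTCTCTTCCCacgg
Rps27: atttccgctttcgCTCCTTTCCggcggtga
Rps27l: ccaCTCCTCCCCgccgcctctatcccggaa
Rpl39: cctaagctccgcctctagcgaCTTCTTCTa
Rpl39l: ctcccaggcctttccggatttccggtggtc
Rpl7l1: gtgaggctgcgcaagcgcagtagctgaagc
Rpl35: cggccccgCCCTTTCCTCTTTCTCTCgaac
The windows lie at chr4:152325711-152325740 (plus strand, Rpl22), chr3:28805493-28805522 (plus, Rpl22l1), chr3:90213634-90213663 (minus, Rps27), chr9:66946071-66946100 (plus, Rps27l), chrX:37085208-37085237 (minus, Rpl39), chr16:10170213-10170242 (plus, Rpl39l), chr17:46782642-46782671 (minus, Rpl7l1) and chr2:39005117-39005146 (minus, Rpl35). Within the pairs, Rpl22 had no such run while Rpl22l1 did, Rpl39 had one while Rpl39l did not, and both Rps27 and Rps27l had one. Rpl35 had the longest of the 8, with 18 bases. The run of Rps27l lay wholly before the listed start, so it is not among the first transcribed bases of that start. The runs of Rps27 and Rpl35 spanned the start, and those of Rpl22l1 and Rpl39 began after it.

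Of the 84 members, 64 were matched in the RefSeq promoter table. A pyrimidine run of at least 8 bases near the start, on either side of it, stood in 27 of them (42.2%), against 3651 of 27025 promoters of all genes (13.5%). The same run on the other strand, that is a purine run, stood in 3 members (4.69%) and in 14.7% of all promoters. In the whole 300-base promoter, read on both strands, CCGGAAG, letters bound by ETS factors, occurred in 25 members (39.1%) and in 9.12% of all promoters. AAGATGGC, the core of the YY1 motif, occurred in 5 members (7.81%) and in 2.88% of all promoters, and TATAAA in 6 members (9.38%) and in 14.2%. These are matches of letters in the listed windows and do not show a binding site.

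Ribosomal protein mRNA made up 17.8% of UMIs in WT and 18.5% in cKO mesenchymal-like cells, against 8.87% (WT) and 8.43% (cKO) in macrophage-like cells. The lowest share among the classes of the plot of share by class was in neutrophil-like cells, at 7.41% in WT and 6.73% in cKO. In these cells the 10 neutrophil markers, S100a8 and S100a9 among them, alone summed to 203787 and 214115 CPM. Unnamed clusters 2 and 3 lay near the macrophage-like cells, with 9.13% and 9.61% in WT and 8.70% and 9.23% in cKO. Endothelial-like cells had 10.5% (WT) and 10.6% (cKO). The lymphocytes stood closer to the mesenchymal-like cells than to the macrophages: B cell-like cells had 16.9% (WT, 46 cells) and 16.1% (cKO, 57 cells), and T or NK cell-like cells 14.4% (WT, 86 cells) and 17.2% (cKO, 73 cells). Counting intervals were narrow (17.77% to 17.78% in WT and 18.51% to 18.52% in cKO mesenchymal-like cells), and single cells of 1 class spread far more widely. In mesenchymal-like cells the middle 50% of cells ran from 12.1% to 18.4% in WT and from 13.7% to 20.5% in cKO.

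**Figure D1:**
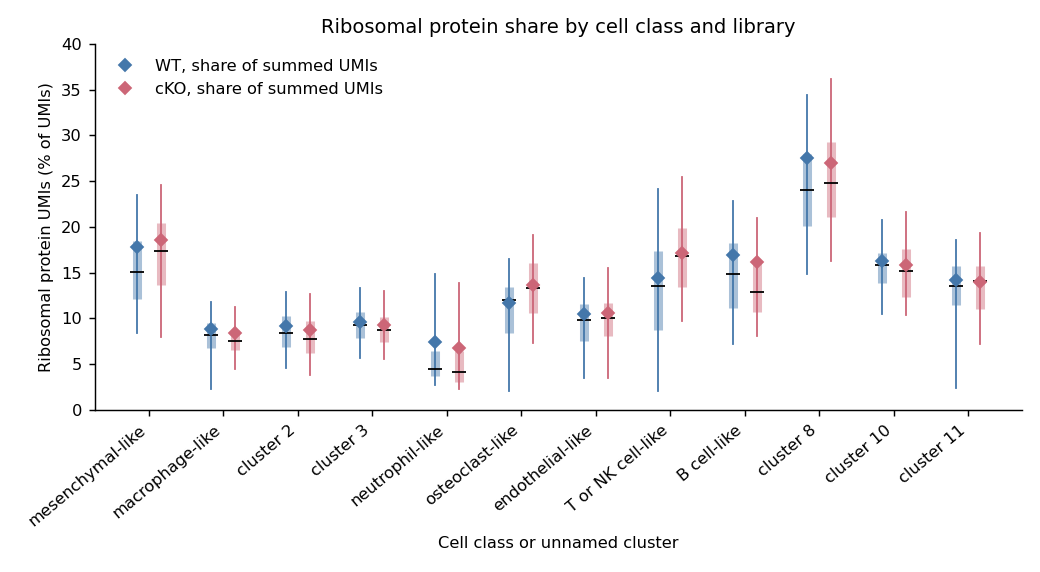
Share of UMIs from ribosomal protein genes (vertical axis, %) in 7 named classes and 5 unnamed clusters, WT in blue and cKO in red. Diamonds give the share of summed UMIs, black ticks the median cell, thick bars the middle 50% and thin lines the middle 90% of cells. Mesenchymal-like cells (17.8% and 18.5%) stand above macrophage-like (8.87% and 8.43%) and neutrophil-like cells (7.41% and 6.73%), and cluster 8 (27.5% and 27.0%) stands above all.

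The balance of the 2 subunits varied little between the classes. Small-subunit genes gave 44.6% of ribosomal protein UMIs in mesenchymal-like cells of both libraries, 45.5% (WT) and 46.0% (cKO) in macrophage-like cells, 46.5% and 47.0% in neutrophil-like cells and 43.9% and 44.6% in endothelial-like cells. The 10 members with most UMIs over all cells, among them Rpl13, Rpl23, Rpl41, Rplp0, Rplp1, Rps2, Rps12, Rps20 and Rps24, together gave 24.9% of ribosomal protein UMIs in WT and 24.7% in cKO. Rplp1, an acidic stalk protein of the large subunit that helps recruit elongation factors, was at 5468 CPM in WT and 5769.7 CPM in cKO over all cells. Rpl7l1 was the lowest of the 82 members that reached 10 CPM in mesenchymal-like cells of either library, at 67.6 and 70.3 CPM over all cells. A 3' kit gives 1 tag per molecule, so these values are not scaled by length. Rpl3l and Rpl10l, known as muscle and testis forms, stayed under 10 CPM and are described with the paralogues.

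Between classes, 80 of 82 members were higher in mesenchymal-like than in macrophage-like cells, with a median log2 difference of 1.103 (mean of both libraries) beside -0.15 over all 9823 genes tested. In both libraries, 72 members were at least 1.5-fold higher, where 23.3% of all genes were. Rpl39l, the second gene of the Rpl39 pair, differed most: it was at 185 CPM in WT mesenchymal-like and 26.8 CPM in WT macrophage-like cells, and at 192 and 19.99 CPM in cKO. The ratios were 6.89 and 9.61, and the order of the classes was the same in both libraries. Because Rpl39l took part in the clustering, its difference between classes is a description.

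Rpl22l1, which shares its fold with the RNA-binding protein Rpl22, followed with 906 against 256 CPM in WT and 937 against 266 CPM in cKO, ratios of 3.54 and 3.52. Core proteins of both subunits came next. Rps2, Rps3 and Rps18 of the small subunit had ratios of 3.04, 2.77 and 3.01 in WT and 3.56, 3.51 and 3.71 in cKO. Rpl15 and Rpl18 of the large subunit had ratios of 3.02 and 2.998 in WT and 3.67 and 3.82 in cKO. For each of these members except Rpl22l1, the ratio was larger in cKO than in WT. In the cKO library the 2 classes also differed more in depth, with medians of 61817 UMIs per mesenchymal-like and 4448 per macrophage-like cell, against 13553 and 5637 in WT, and the part of depth in these ratios was not tested.

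Only Rpl7l1 and Rps29 were lower in mesenchymal-like cells. Rps29, a zinc-binding protein of the small subunit head, was at 2454 CPM in mesenchymal-like and 2751 CPM in macrophage-like cells of WT, and at 2128 and 2397 CPM in cKO. Its ratios were 0.892 and 0.888. Rpl7l1, which is known as a nucleolar relative of Rpl7, had 67.4 against 74.9 CPM in WT and 69.0 against 81.2 CPM in cKO. Rpl15, Rpl18, Rpl22l1, Rps2 and Rps18, among the highest, overlap another annotated gene. The next smallest ratios belonged to short proteins: Rps28 (1.32 in WT, 1.29 in cKO), Rps21 (1.33 and 1.32), Rpl37a (1.28 and 1.35), Rpl41 (1.51 and 1.46), Rps27l (1.42 and 1.46) and the stalk protein Rplp2 (1.34 and 1.27). Set against the median member in WT, Rps29 had a log2 difference of -1.18 and Rps28 of -0.62.

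**Figure D2:**
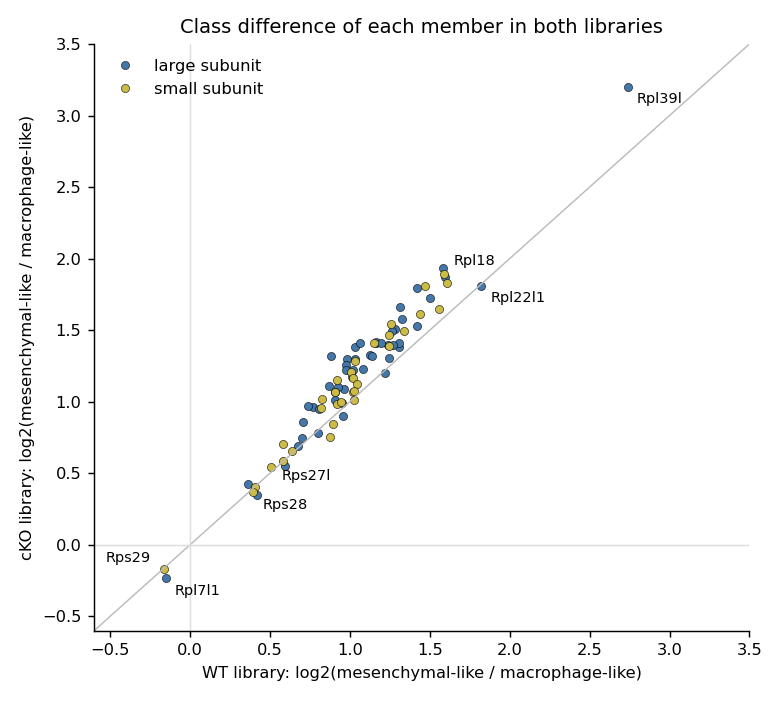
Each point is 1 of 82 ribosomal protein genes, with log2(mesenchymal-like / macrophage-like) in CPM plus 1 in the WT library (horizontal) and in the cKO library (vertical). Blue points are large-subunit and yellow points small-subunit genes, and the diagonal marks equal values. Rpl39l stands at the upper end, Rpl7l1 and Rps29 lie below 0 on both axes, and most members lie above the diagonal.

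Against macrophage-like cells, neutrophil-like cells had 55 members lower and 17 higher in both libraries, with a median log2 of -0.18 beside -0.44 over all 9212 genes tested. In both libraries 13 members were at least 1.5-fold lower, which is below the 38.7% of all genes that were, and 1 was at least 1.5-fold higher (14% of all genes). The 13 included both stalk proteins: Rplp1 was at 1417 against 3560.0 CPM in WT and 1138 against 3854 CPM in cKO, and Rplp2 at 1005 against 1836 and 839 against 1861 CPM. Rps27l had the lowest mean over both libraries, with 257 against 728 CPM in WT and 218 against 739 CPM in cKO. Rpl9, a protein of the large subunit near the stalk base, was the member that was higher, with 1120.0 against 686 CPM in WT and 1189 against 676 CPM in cKO. These are named as the ends of the ranking in neutrophil-like cells and were chosen after their values were seen.

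The mesenchymal-like class itself was not uniform. Cluster 0, led by Igfbp5, Mmp13 and Col1a1, had 14.1% ribosomal protein UMIs in WT and 14.0% in cKO. Cluster 1, led by Tenm4, Cemip and Cdkn2a, had 18.9% and 19.5%. Cluster 6, led by the mitotic genes Prc1, Hmmr and Cenpf, had 17.7% and 17.3%. In cluster 0, 17 members were at least 1.5-fold lower than in cluster 1 in both libraries, where 0.614% of all genes were. Rpl21 was lowest, at 1188 against 2023 CPM in WT and 1142 against 2038 CPM in cKO, and 78 of 82 members were lower in both libraries. The others did not keep 1 order: Rpl7l1 (66.7 against 64.4 CPM in WT, 64.6 against 65.2 CPM in cKO), Rpl37a (2188 against 2032 and 1900 against 2124 CPM), Rps26 (2186 against 2170.1 and 1558 against 2062 CPM) and Rpl38 (1725 against 1698 and 1332 against 1602 CPM). Cells of cluster 0 were shallower, with a median of 5503.5 UMIs in WT and 3822.5 in cKO beside 46545 and 64012.5 in cluster 1, and the part of depth was not tested. Cluster 0 also held most WT mesenchymal-like cells (2012 of 3762) while cluster 1 held most of those of cKO (820 of 1439).

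Cluster 8 had the highest share, 27.5% in WT (163 cells) and 27.0% in cKO (384 cells). All 82 members were higher there than in mesenchymal-like cluster 1, by a median log2 of 0.49 beside -0.29 over all 8694 genes tested, and 77 were at least 1.2-fold higher in both libraries (21.3% of all genes). Rps26, a small-subunit protein at the mRNA exit, stood furthest apart, at 4392 against 2170.1 CPM in WT and 4057 against 2062 CPM in cKO. Rpl36al and Rpl27 followed with ratios of 1.83 and 1.76 in WT and 1.78 and 1.77 in cKO. Cells of cluster 8 had few UMIs (median 2656 and 2354), a low mitochondrial share (0.94% and 0.75%, against 3.60% and 4.13% in cluster 1) and a low share of the nuclear RNA Malat1 (0.13% and 0.09%, against 1.45% and 1.09%). Its leading genes included Gm19951, Cmss1 and Lars2, it reached no marker set, and mesenchymal markers summed to 4539 and 2937 CPM there.

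The comparison of genotypes asked how loss of the copper importer in mesenchymal cells goes with the ribosomal protein genes in the cells that Prrx1-Cre targets and in those it does not. Mesenchymal-like cells had 0.74 points more ribosomal protein UMIs in cKO than in WT (18.5% against 17.8%), and macrophage-like cells 0.44 points fewer, a difference of -0.44 (8.43% against 8.87%). The mesenchymal difference was not the same within clusters: it was 0.57 points in cluster 1, while cluster 0 (14.0% against 14.1%) and cluster 6 (17.3% against 17.7%) were lower in cKO. It was 0.18 points in cells with at least 20000 UMIs and 1.56 points when each cell counted equally. At matched depth the order of the libraries changed from bin to bin. Among mesenchymal-like cells with 1000 to 3000 UMIs the share was 12.1% in WT and 9.64% in cKO, and with 3000 to 10000 UMIs it was 13.5% and 12.3%. It was 13.1% and 14.3% with 10000 to 20000 UMIs, 15.85% and 14.3% with 20000 to 40000, 18.8% and 18.3% with 40000 to 80000, and 19.1% and 19.4% with 80000 or more. For macrophage-like cells the libraries differed by less than 0.2 points in each bin, at 7.13% and 7.03%, 7.44% and 7.52%, 8.89% and 8.72%, and 9.83% and 9.86% from the shallowest to the deepest.

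With the mesenchymal-like clusters pooled, no member reached 1.2-fold in either direction, where 3.01% of all genes were at least 1.2-fold higher and 5.75% at least 1.2-fold lower. The members spread from -0.21 to 0.21 in log2(cKO / WT), 63 were higher and 19 lower, and the median was 0.07 beside -0.03 over all 8951 genes tested. Within the clusters this direction was seen in cluster 1 but not in the others, and cluster 0 made up 2012 of the 3762 WT and 236 of the 1439 cKO cells of the class; the part of this mix in the class totals was not tested. Cluster 1 had 62 members higher and 20 lower (median 0.05 beside -0.02 over all genes), cluster 0 had 39 and 43 (median -0.01 beside 0.01) and cluster 6 had 26 and 56 (median -0.03 beside -0.0040).

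In cluster 0, 1 member was at least 1.2-fold higher in cKO (13.6% of all genes) and 6 were at least 1.2-fold lower (11.5%). The higher one was Rps3, at 1099 CPM in WT and 1393 in cKO (ratio 1.27, interval 1.23 to 1.31). Lowest were Rps26, at 2186 and 1558 CPM (ratio 0.713, interval 0.693 to 0.733), and Rpl38, at 1725 and 1332 CPM (ratio 0.772), followed by Rpl35, Rps29, Rpl39 and Rpl39l with ratios of 0.812 to 0.827. These were chosen after their values were seen. No member passed 1.2-fold in cluster 1 (3.58% of all genes higher, 5.64% lower) or in cluster 6 (4.5% higher, 4.04% lower). Rps29 was lower in cKO in each of the 3 clusters, with log2 ratios of -0.29 in cluster 0, -0.19 in cluster 1 and -0.23 in cluster 6.

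Over the whole class, the upper end held Rps10 (2525 CPM in WT, 2924 in cKO, ratio 1.16 with interval 1.15 to 1.16), the nuclease-like Rps3 of the mRNA entry channel (1768 and 2047 CPM, ratio 1.16), Rpl9 (1646 and 1904 CPM, ratio 1.16) and Rpsa, the laminin-receptor protein of the small subunit (3220.1 and 3630.2 CPM, ratio 1.13). Rps13, Rpl11, Rpl17 and Rpl7a completed the 8 highest with ratios of 1.12 to 1.13. Rpl11 is known as a binder of Mdm2 when ribosome assembly fails.

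The lower end held Rps29 (2454 CPM in WT, 2128 in cKO, ratio 0.867 with interval 0.862 to 0.872), Rpl35 (1138 and 1036 CPM, ratio 0.910), Rpl31 (992 and 912 CPM, ratio 0.920), Rpl38 (1674 and 1543 CPM, ratio 0.922), Rps28, Rps26, Rpl23a and Rpl39 (ratios 0.924 to 0.949). Rpl31, Rpl35, Rpl38 and Rpl39 are small proteins of the large subunit. Over 82 genes, which are not independent replicates, Spearman's rho between annotated spliced length and log2(cKO / WT) was 0.44. The 10 members with the shortest annotated length had a median of -0.04 and the 10 with the longest 0.06. The longest included Rps15a (5130 bases) and Rps20 (3706). In the other groups of cells rho was 0.46 (neutrophil-like), 0.42 (cluster 2), 0.32 (cluster 8), 0.23 (cluster 3) and 0.08 (macrophage-like). Among the genes named for this comparison, Rps10, Rpl23a, Rpl31, Rpl35 and Rps28 overlap another gene, and tags of overlapping genes cannot be assigned with certainty. When each cell counted equally, 16 members were at least 1.2-fold higher in cKO, where 6.15% of all genes were.

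In macrophage-like cells 67 members were lower and 15 higher in cKO, with a median log2 of -0.08 beside -0.03 over all 8997 genes tested. There 8 members were at least 1.2-fold lower (16% of all genes) and none at least 1.2-fold higher (9.68%). Rpl35 was lowest, at 576 CPM in WT and 420.3 in cKO (ratio 0.729, interval 0.702 to 0.758). Rpl39l was at 26.8 and 19.99 CPM (ratio 0.747, interval 0.622 to 0.895), and Rpl10, Rpl36, Rpl21, Rpl31, Rpl11 and Rpl28 had ratios of 0.816 to 0.832. The upper end was Rpsa (1669 and 1817 CPM, ratio 1.09), Rpl7l1 (74.9 and 81.2 CPM, interval 0.984 to 1.19) and Rplp1 (3560.0 and 3854 CPM, ratio 1.08), followed by Rps4x, Rpl5, Rpl22l1, Rps3a1 and Rplp0 with ratios of 1.03 to 1.05. Within this class, the median was -0.16 in cluster 4 (3 members higher, 79 lower) and -0.06 in cluster 5 (22 higher, 60 lower). The all-gene median was -0.03 in both. Rpsa and Rplp1 had ratios of 0.959 and 0.979 in cluster 4, and of 1.11 and 1.07 in cluster 5. The part of the mix of clusters in the class totals was not tested. With median-of-ratios scaling 25 members were higher and 57 lower, and 2 stayed at least 1.2-fold lower.

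The other groups of cells were read from the same 2 libraries. The median log2 was -0.06 in cluster 2 and in cluster 3, -0.14 in neutrophil-like cells and -0.02 in cluster 8. The all-gene medians were -0.028, -0.025, -0.034 and -0.034 in that order, so the members of cluster 8 lay slightly above all genes. At least 1.2-fold lower were 4 members in cluster 2 (13.6% of all genes), 3 in cluster 3 (11.5%), 13 in neutrophil-like cells (17.1%) and none in cluster 8 (28.8%). The split of higher to lower members was 16 to 66, 17 to 65, 4 to 78 and 32 to 50 in that order, and with median-of-ratios scaling it was 26 to 56, 27 to 55, 13 to 69 and 47 to 35. Rpl35 had log2(cKO / WT) of -0.14 in mesenchymal-like and -0.45 in macrophage-like cells, -0.41 in cluster 2, -0.35 in cluster 3, -0.42 in neutrophil-like cells and -0.26 in cluster 8. The pyrimidine-rich RefSeq start of Rpl35 is printed above. Its GENCODE gene (chr2:39001580-39005624, minus strand) extends upstream of that start. The gene overlaps Arpc5l and Wdr38, so its tags could be assigned to a neighbour. Rps29 had -0.21, -0.20, -0.28, -0.24, -0.23 and -0.14 in the same order, and Rpl31 -0.12, -0.27, -0.32, -0.27, -0.27 and -0.24. Rps3 differed by class, with 0.21 in mesenchymal-like, -0.13 in macrophage-like and values of -0.04 to 0.01 in the other 4. Rpsa had 0.17, 0.12, 0.10, 0.15, -0.04 and 0.14.

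**Figure D3:**
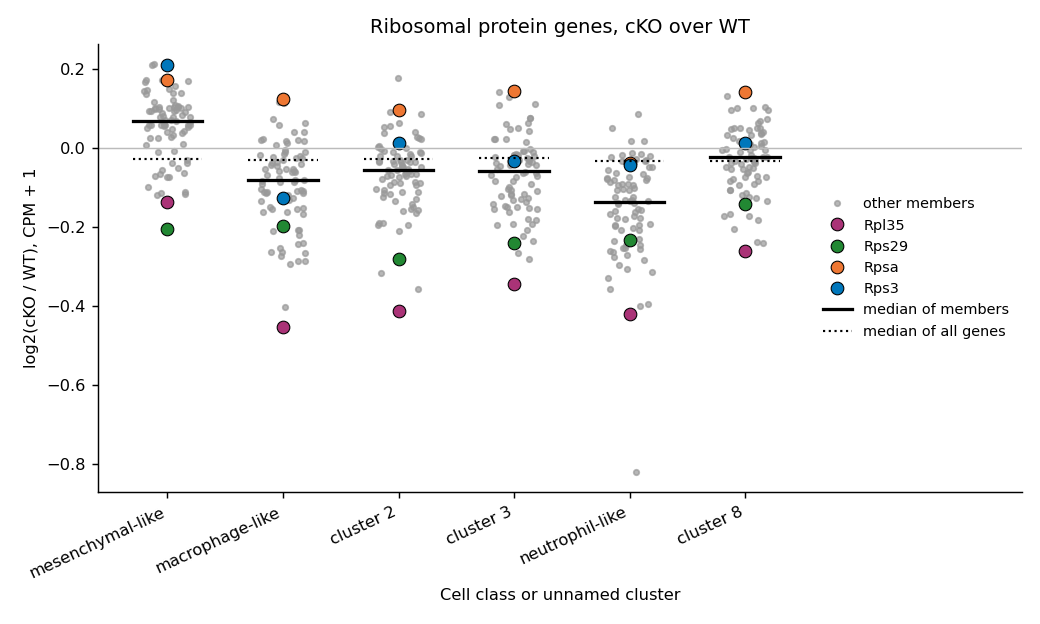
Log2(cKO / WT) in CPM plus 1 (vertical axis) of 82 ribosomal protein genes in 6 classes or clusters (horizontal axis), with 4 genes in colour. Solid bars give the median of the members and dotted bars the median of all genes tested. The mesenchymal-like median (0.07) lies above that of all genes (-0.03), Rpl35 runs from -0.45 to -0.14, and the single low point in neutrophil-like cells is Rpl39l. That point rests on 27 (WT) and 19 (cKO) UMIs, with an interval of 0.276 to 0.981 for the ratio.

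Genes that build or regulate ribosomes gave the following in mesenchymal-like cells, cKO over WT, beside the all-gene median of -0.03. Of 20 further ribosomal proteins and translation factors, 16 were higher and 4 lower (median log2 0.07, but -0.0087 in cluster 0 alone). They included the poly(A)-binding protein gene Pabpc1 (852 CPM in WT, 972 in cKO). Of 28 ribosome biogenesis genes 21 were higher and 7 lower (median 0.06), among them the assembly factors Rrs1 (28.1 and 33.5 CPM) and Bysl (29.6 and 34.9 CPM). Of 9 measured RNA polymerase I genes 5 were higher and 4 lower (median 0.02), and of 15 translation regulators 6 were higher and 9 lower (median -0.01, but 0.01 in clusters 0 and 6 each alone). Myc, a transcriptional activator of ribosome biogenesis, was at 32.0 (WT) and 40.2 (cKO) CPM, with a ratio of 1.25 and an interval of 1.19 to 1.31. Mtor was at 30.2 and 27.8 CPM and Rps6kb1, which encodes an S6 kinase, at 97.5 and 87.2 CPM. Of 78 mitochondrial ribosomal protein genes 65 were higher and 13 lower (median 0.10), led by Mrps6 (47.4 and 60.1 CPM, ratio 1.27).

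In macrophage-like cells the all-gene median was -0.03. The mitochondrial ribosomal protein genes lay close to it, with 30 of 77 higher and 47 lower (median -0.04). Of 28 biogenesis genes 20 were higher and 8 lower (median 0.11). Nip7, an assembly factor of the large subunit, was at 37.4 (WT) and 50.8 (cKO) CPM there. Of 20 further ribosomal proteins and translation factors 13 were higher (median 0.06), with Pabpc1 at 864 and 1144 CPM. Myc (17.3 and 25.6 CPM) and Atf4 (267 and 387 CPM) headed the translation regulators, of which 6 were higher and 6 lower. The 7 measured RNA polymerase I genes had 3 higher and 4 lower, with Taf1d at 72.4 and 53.2 CPM.

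Cells were called cycling when at least 3 of 12 cell cycle markers had a UMI after thinning each cell to 3000 UMIs, which left out 424 WT and 99 cKO mesenchymal-like cells and 336 and 502 macrophage-like cells that were shallower. The call is a range of a count and no cell type: 467 and 113 mesenchymal-like cells lay 1 marker below the threshold. Cycling mesenchymal-like cells had a ribosomal protein share of 16.5% (WT, 1340 cells) and 17.1% (cKO, 396 cells), and the other cells had 18.5% (1998 cells) and 19.2% (944 cells), a difference of -1.95 and -2.10 points. In cells with 20000 UMIs or more it held in each depth bin, from -1.84 to -2.06 points in WT and from -1.997 to -2.57 points in cKO. With 3000 to 10000 UMIs it was -0.42 and -1.63 points. With 10000 to 20000 UMIs the sign was opposite in both libraries, at 0.92 points in WT and 2.08 points in cKO (25 cycling and 41 other cells). In WT, when the cells of cluster 6 stood for the cycling cells, the difference was -0.049 points. By markers seen, the WT share was 19.1% (0), 17.4% (1 or 2), 16.0% (3 to 5, median 8730 UMIs) and 17.3% (6 or more, median 49811 UMIs). In cKO it was 19.6%, 18.5%, 17.4% and 16.6%. The part of the mix of clusters in these differences was not tested.

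Cycling macrophage-like cells had a higher share than the other macrophage-like cells, at 9.29% against 7.93% in WT and 8.88% against 7.86% in cKO. They were also deeper, with medians of 15842 against 5096 UMIs in WT and 11817 against 5084.5 in cKO. Within depth bins the difference was -0.06 points at 3000 to 10000 UMIs and -0.00079 points at 10000 to 20000 UMIs in WT, and 0.19 and 0.15 points in cKO.

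**Figure D4:**
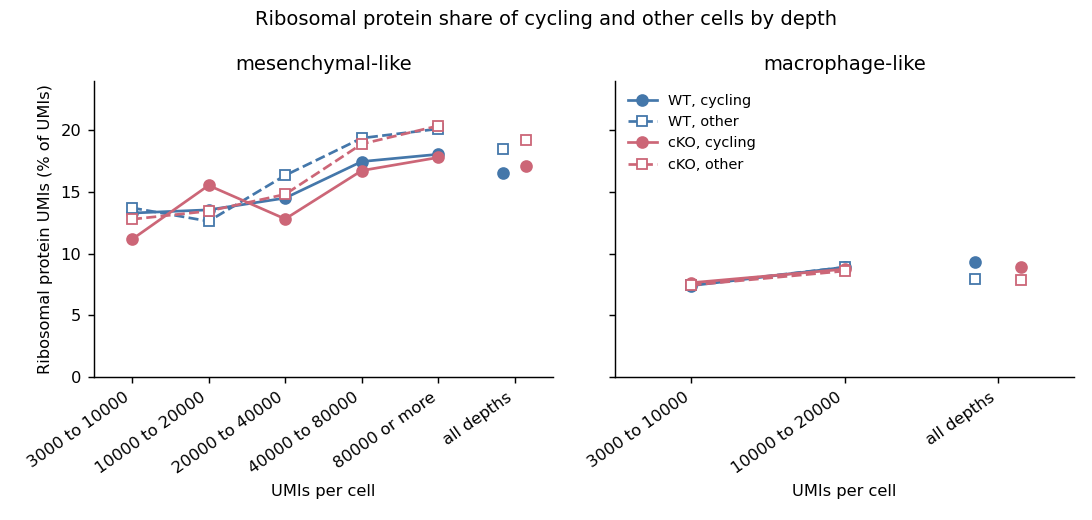
Ribosomal protein share of UMIs (vertical axis, %) of cycling (filled circles) and other cells (open squares) by UMIs per cell (horizontal axis), WT in blue and cKO in red, with all depths together at the right. In mesenchymal-like cells with 20000 UMIs or more the cycling cells lie below the others in each bin and library. In macrophage-like cells the states lie within 0.2 points of each other in both bins and further apart over all depths.

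Member by member, 79 of 82 were lower in cycling than in other mesenchymal-like cells, with a median log2 of -0.17 beside 0.04 over all 8935 genes tested. Depth was not matched here: cycling cells of WT were shallower (median 11060.5 against 35364.5 UMIs) and those of cKO deeper (69624 against 62272). The part of depth in the values of single members was not tested. At least 1.2-fold lower in both libraries were 2 members, Rpl10a and Rpl10, where 5.76% of all genes were. Rpl10a was at 1532 against 1882 CPM in WT and 1626 against 2012 CPM in cKO. Rpl10, the last-joining protein of the large subunit, was at 1162 against 1436 CPM and 1222 against 1470.2 CPM. Rpl13a, Rpl22l1, Rpl23a and Rps7 were also among the 8 lowest, with ratios of 0.837 to 0.850 in WT and 0.824 to 0.847 in cKO. Rpl7l1 (72.5 against 64.6 CPM in WT, 78.3 against 64.6 CPM in cKO) and Rpl36al (639 against 605 and 684 against 634 CPM) were higher in cycling cells of both libraries. Rpl39l was at 189.5 against 182.5 CPM in WT and 192.0 against 192.4 CPM in cKO, and Rps2, Rps27l, Rps29, Rpl41 and Rpsa completed the 8 highest, all with ratios under 1.

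The ribosome biogenesis list differed in sign from the ribosomal protein genes in cycling mesenchymal-like cells, again without matched depth. In the mean of both libraries 28 of 28 were higher, by a median log2 of 0.23 beside 0.04 over all genes tested. So were 70 of 78 mitochondrial ribosomal protein genes (median 0.17) and 7 of 9 RNA polymerase I genes (median 0.16). Translation factors and further ribosomal proteins were lower in 15 of 20 (median -0.17). In macrophage-like cells 72 of 82 members were higher in cycling cells, and 32 were at least 1.2-fold higher in both libraries (14.5% of all genes), beside the depth difference given above. Rps3 (701 against 472 CPM in WT, 650.0 against 471 in cKO) stood at the top there and Rpl39l (23.0 against 29.6 and 14.3 against 22.8 CPM) at the bottom.

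Of the paralogue pairs, 7 had both genes in the files. A share of a pair is given as a share of its UMIs, and since a gene's capture differs from that of its partner, it is compared between cells and not read as a ratio of molecules. Rpl22l1 gave 42.8% of the Rpl22 and Rpl22l1 UMIs in WT and 41.8% in cKO mesenchymal-like cells. It gave 27.8% and 30.6% in macrophage-like cells, 24.4% and 25.5% in cluster 2, 24.97% and 29.0% in cluster 3, 35.7% and 35.1% in neutrophil-like cells, 34.9% and 34.7% in endothelial-like cells and 21.4% and 14.7% in B cell-like cells. Mesenchymal-like cells were highest in both libraries, and their intervals (42.6% to 43.0% and 41.6% to 42.1%) did not meet those of another class shown. The difference of cKO from WT in mesenchymal-like cells, -0.93 points, turned to 0.80 points when each cell counted equally. By cluster it was 1.93 points in cluster 0 (39.4% in WT, 41.4% in cKO), -1.32 in cluster 1 and -1.72 in cluster 6.

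Rps27l, a p53-responsive relative of Rps27, gave 40.01% (WT) and 42.2% (cKO) of its pair in mesenchymal-like cells. It gave 48.9% and 50.2% in macrophage-like cells and 48.2% and 48.8% in cluster 3, but 26.8% and 26.4% in neutrophil-like, 14.7% and 9.33% in T or NK cell-like and 11.8% and 5.09% in B cell-like cells. The low share in lymphocytes came with both genes: in B cell-like cells Rps27 was at 2081 CPM in WT and 2627 CPM in cKO, above the 1551 and 1475 CPM of mesenchymal-like cells, and Rps27l at 279 and 141 CPM, below their 1035 and 1076 CPM. B and T or NK cell-like cells numbered under 100 in each library.

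Rpl39l gave 7.31% and 7.96% of its pair in mesenchymal-like cells and 7.39% and 8.85% in cluster 8. Elsewhere it stayed low: 2.17% and 1.76% in macrophage-like cells, 1.32% and 1.16% in cluster 2, 1.04% and 1.00% in cluster 3, 1.25% and 0.75% in neutrophil-like and 0.93% and 1.34% in endothelial-like cells. In osteoclast-like cells it was 0.57% in WT (6 of 1056 UMIs) and 3.14% in cKO, and mesenchymal markers there summed to 733 (WT) and 3198 (cKO) CPM. The part of free RNA or of attached mesenchymal cells in these low values was not tested.

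Rpl7l1 gave 3.93% and 3.77% of its pair in mesenchymal-like cells and 10.1% and 10.8% in macrophage-like cells. Its own level was close in both classes (67.4 and 69.0 against 74.9 and 81.2 CPM), and Rpl7 set the difference with 1649 and 1759 CPM in mesenchymal-like and 665 and 673 CPM in macrophage-like cells. Rpl36al, a copy of Rpl36a that lies on an autosome while Rpl36a is X-linked, gave 40.1% and 40.04% of its pair in mesenchymal-like and 41.2% and 39.7% in macrophage-like cells, with 29.2% to 33.3% in T or NK cell-like and 45.4% to 46.0% in neutrophil-like cells. Rpl3l had 4 and 7 UMIs in mesenchymal-like cells beside 148395 and 130058 of Rpl3. In neutrophil-like cells it had 12 and 8 UMIs, 0.87% (interval 0.45% to 1.52%) and 0.49% (0.21% to 0.96%) of the pair. Rpl10l had none, which allows up to 0.0022% of the pair in WT mesenchymal-like cells.

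**Figure D5:**
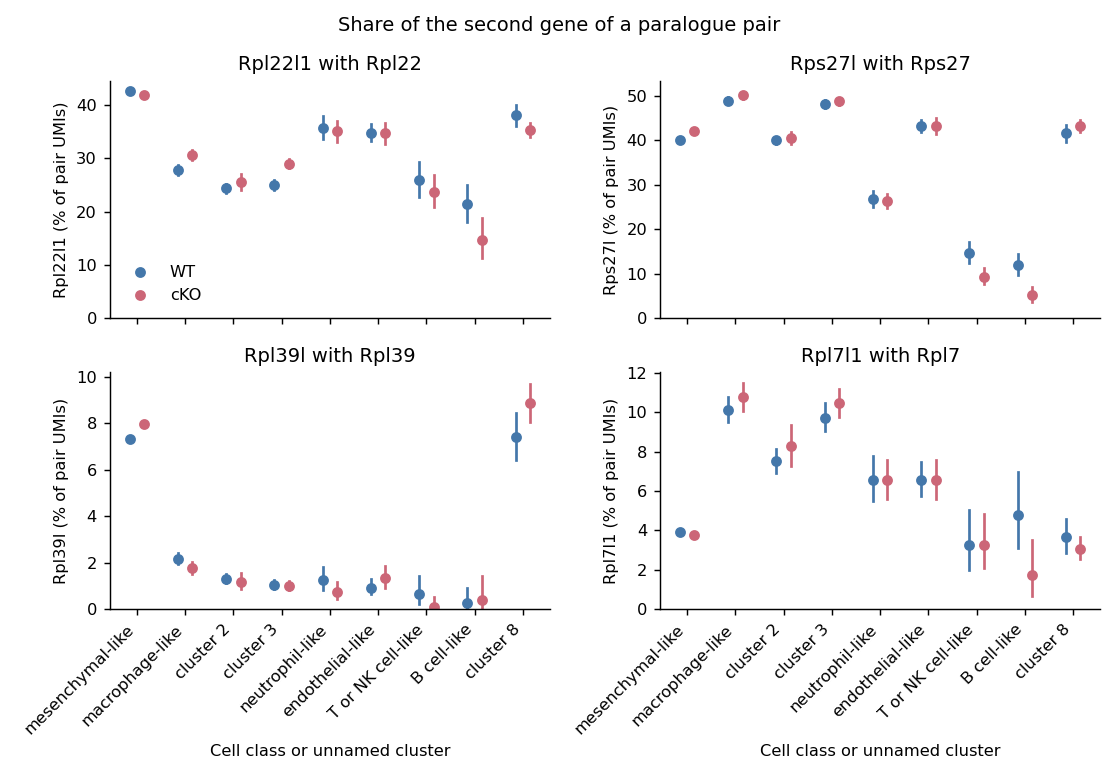
Share of a pair's UMIs that came from the second gene (vertical axes, %) for 4 pairs in 9 classes or clusters (horizontal axes), WT in blue and cKO in red, with exact 95% counting intervals. Rpl22l1 is highest in mesenchymal-like cells, and Rpl39l is high in mesenchymal-like cells and cluster 8. Rps27l is low in T or NK and B cell-like cells, and Rpl7l1 is high in macrophage-like cells and cluster 3.

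Cycling and other mesenchymal-like cells also differed within the pairs, again without matching their depth. Rpl36al gave 42.7% of its pair in cycling and 38.8% in other cells of WT, and 42.9% and 38.8% in cKO. Rps27l gave 41.4% against 39.4% and 44.4% against 41.3%, Rpl39l 8.02% against 6.98% and 8.63% against 7.69%, and Rpl7l1 4.61% against 3.59% and 4.69% against 3.40%. Rpl22l1 had the other order, with 41.4% against 43.4% in WT and 40.4% against 42.4% in cKO. In macrophage-like cells Rpl36al kept its order, with 42.3% in cycling and 37.9% in other cells of WT and 40.1% and 36.7% in cKO. So did Rps27l (50.3% against 45.5%, 51.3% against 48.9%), Rpl7l1 (10.6% against 9.32%, 10.9% against 10.6%) and Rpl22l1 (26.6% against 30.3%, 29.7% against 30.4%). Intervals of cycling and other cells met for Rpl7l1 in both libraries and for Rps27l and Rpl22l1 in cKO. Rpl39l was lower in cycling macrophage-like cells, with 1.81% in cycling and 2.55% in other cells of WT, where the intervals met, and 1.23% and 2.10% in cKO.

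Entries close in sequence to members but outside the rule could take some of their tags. In mesenchymal-like and macrophage-like cells Rpl10-ps3 was between 36.8 and 64.3 CPM, Rpl9-ps6 between 28.4 and 52.8 CPM, Rpl36a-ps1 between 10.7 and 17.2 CPM and Rps27rt, a near copy of Rps27, between 46.3 and 77.6 CPM. Each was far below its member (Rps27 was at 1551 CPM in WT mesenchymal-like cells), and how reads matching both were assigned was not examined.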

How the data were processed

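The deposited data were whole-number UMI counts per gene and cell barcode, 1 matrix for each of 2 libraries. They were made by the authors using Cell Ranger (version 7.1.0 per the file headers). The submitters' processing notes name the mm10 build and Seurat, and no source used here states how intronic reads were treated. From these counts, cells with at least 500 genes and 1000 UMIs and at most 15% mitochondrial UMIs were kept. Scrublet's automatic threshold marked 2 cells per library, so the cells with the highest scores were removed instead, at 0.8% per 1000 cells (534 WT, 243 cKO). Clusters came from 2000 variable genes, 30 principal components, 15 neighbours and Leiden resolution 0.5 (scanpy 1.11.5, leidenalg 0.10.2), and were named from fixed marker lists.

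CPM, shares and ratios were computed here from UMIs summed per library and class. Log2 ratios used a prior of 1 CPM, and genes with at least 10 CPM in either group were tested for fold thresholds. Intervals are exact 95% binomial (Clopper-Pearson) intervals and cover counting error only. They held the true value for 95.1% of 8612 unchanged genes in simulated counts of mesenchymal-like cells, cKO over WT. For genes simulated at other ratios, 50 at each, they held it for 90% to 100%. The simulated counts carried counting error alone, so these values do not measure spread between cells or libraries. With 1 library per group there was no test. Named genes were the 8 members with the highest and lowest ratio in the main comparisons, the paralogue pairs, the 10 members with most UMIs and up to 4 genes per companion list. Members, lists and rules were chosen with earlier results of these data known. Gene coordinates are from GENCODE M21, and 22 of 84 members overlap another gene. Alternatives changed the cell filter, doublet removal, clustering, depth, weighting of cells, scaling, prior and cycling call. Some members and list genes are not reported here by name.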

Additional observations from a re-analysis of the deposited data

Results flagged for a closer look

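Over all depths, the ribosomal protein share differed between cycling and other cells with opposite signs in the 2 classes. In mesenchymal-like cells cycling cells were at -1.95 points in WT and -2.10 points in cKO, and in macrophage-like cells at 1.37 points in WT and 1.02 points in cKO. The opposite signs did not hold throughout at matched depth. In macrophage-like cells the difference was -0.065 and -0.00079 points in WT cells with 3000 to 10000 and 10000 to 20000 UMIs, and 0.19 and 0.15 points in cKO cells of the same depths, and in mesenchymal-like cells with 10000 to 20000 UMIs it was 0.92 points in WT and 2.08 points in cKO. Between the genotypes, the share in mesenchymal-like cells differed by 0.740 points (cKO minus WT) and in macrophage-like cells by -0.439 points. Of the mesenchymal-like clusters, cluster 1 differed by 0.572 points, while cluster 0 (-0.125) and cluster 6 (-0.452) had the same sign as the macrophage-like cells. These were singled out because the totals of the classes had opposite signs, and the difference between the classes was not tested, since each genotype has 1 library.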

How the results depend on the processing

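No paired analysis was possible because each group has 1 library and the labels carry no replicate numbers. The causes of the shifts below were not tested. The alternatives using cluster 0, 1 or 6 alone, or adding clusters 2 and 3, were chosen after seeing the data.

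The mesenchymal-like share difference, cKO minus WT (0.740 points), was 0.771 with no cell filter, 0.715 with a stricter filter, 0.756 with doublets kept, 0.211 at Leiden resolution 1, 0.183 in cells with at least 20000 UMIs, 1.56 with equal cell weights, 0.862 without mitochondrial UMIs and 0.572 in cluster 1, and turned to -0.125 in cluster 0 and -0.452 in cluster 6. In the order no filter, stricter filter, doublets kept, resolution 1, clustering without ribosomal protein genes, deep cells, equal weights, no mitochondrial UMIs and clusters 2 and 3 added, the macrophage-like difference (-0.439) was -0.326, -0.514, -0.511, -0.572, -0.393, -0.0380, -0.292, -0.465 and -0.376. In that order mesenchymal-like minus macrophage-like was 8.66, 8.95, 8.04, 9.44, 8.401, 8.56, 7.33, 9.20 and 8.596 in WT (main 8.90), and 9.75, 10.18, 9.31, 10.23, 9.53, 8.78, 9.19, 10.53 and 9.71 in cKO (main 10.1).

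Cycling minus other mesenchymal-like cells in WT (-1.95) was -1.82 with no filter, -2.05 with the stricter one, -1.79 with doublets kept, -1.62 at resolution 1, -1.74 in deep cells, -2.07 without mitochondrial UMIs, -1.15 with 5 or more markers and -0.0489 for the cycling cluster. In cKO (-2.10) it was -2.23, -2.26, -2.134, -2.18, -2.13427, -2.25, -1.998 and -1.81 in that order, -2.12 with clusters made without ribosomal protein genes and -1.82 with equal weights.

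The median log2 ratio of the members (0.07) was 0.0625 with the stricter filter, 0.02502 at resolution 1, 0.0213 in deep cells, 0.156 with equal weights, 0.0759 without mitochondrial UMIs, 0.0818 without ribosomal protein UMIs, 0.0983 with median-of-ratios scaling, 0.0667 with no filter on low members and 0.0473 in cluster 1, and turned to -0.0056 in cluster 0 and -0.0291 in cluster 6. With equal weights 16 members passed 1.2-fold and in cluster 0 7, against 0. For the companion lists together it was 0.0677, 0.0459, 0.0385, 0.1019, 0.0795, 0.0858 and 0.1019 for the first 7 of these, 0.0650 with a prior of 5 CPM, 0.0498 in cluster 1, 0.0129 in cluster 0 and 0.0396 in cluster 6. The translation factors and further ribosomal proteins turned to -0.0087 in cluster 0. The RNA polymerase I median turned to -0.0058 in cluster 1, and that of the translation regulators to 0.0165 with median-of-ratios scaling and 7.2e-05, 0.0124 and 0.0080 in clusters 1, 0 and 6. The Rpl22l1 share difference (-0.928 points) was -1.46 at resolution 1, -1.28 in deep cells, -1.32 in cluster 1 and -1.72 in cluster 6, and turned to 0.799 with equal weights and 1.93 in cluster 0.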
